A study of Saccharomyces cerevisiae with 6 samples.

Results

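The nuclear cofactors of the RNA exosome and the subunits of the TRAMP complex are encoded in budding yeast by *RRP6*, *LRP1*, *MPP6*, *MTR4*, *PAP2*, *TRF5*, *AIR1* and *AIR2*. These 8 genes were chosen by name, for what their proteins do and not for how their RNAs moved. Earlier results of these data were known when they were chosen. They are among 8898 features with deposited counts, of which 6713 are open reading frames. All 8 were measured with at least 169 counts in every library, and all 8 passed the filter on low counts. The counts come from RNA-seq of rRNA-depleted total RNA from haploid BY4742 cells of *Saccharomyces cerevisiae*, with 3 libraries of *rrp4-G226D* cells and 3 libraries of *RRP4* cells from triplicate cultures. Cells of both genotypes lack the chromosomal *RRP4* gene (*rrp4Δ::NEO*) and are *ura3Δ0*, *leu2Δ0* and *his3Δ1*, to which the strain list of the study's methods adds *lys2Δ0*. The *rrp4-G226D* cells carry *rrp4-G226D-2xMyc* and the *RRP4* cells carry *RRP4-2xMyc*, in each case as the only copy, on the centromeric *LEU2* plasmid pRS315. Per the study's methods, an overnight culture at a lower temperature came first. All cultures were then kept at 37°C for 5 h in medium without leucine before RNA was taken. Neither RNA taken at a permissive temperature nor an untagged chromosomal *RRP4* thus enters the comparison.

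The RNA exosome is a ring of subunits with a cap, of which Rrp4 is a part, and a catalytic base, Dis3. It degrades and trims RNA from the 3′ end in the nucleus and in the cytoplasm, and it depends on cofactors to choose and unwind its substrates. In the nucleus, the helicase Mtr4 feeds RNA into the complex, and the TRAMP complexes join Mtr4 to a poly(A) polymerase, Trf4 (the product of *PAP2*) or Trf5, and to a zinc-knuckle RNA-binding protein, Air1 or Air2. Rrp6 is a further exonuclease found on the nuclear exosome, Rrp47 (the product of *LRP1*) binds and stabilizes it, and Mpp6 is a small protein that helps to dock Mtr4 on the complex. The study combined the Rrp4 variant with mutants of *MPP6*, *LRP1*, *RRP6* and *MTR4* and tested its binding to Mtr4 by immunoprecipitation, and the counts address a separate question, whether the level of their mRNAs differed between the genotypes.

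The substitution G226D is counted from the initiator methionine of Rrp4. The reference sequence around the altered codon is on the minus strand of chromosome VIII, at 233969 to 233995 of the R64 assembly, with that codon, which encodes the glycine, in capitals.
RRP4, glycine codon: accgtagttctcGGAgtcaatggttac
Reads on *RRP4* come from the plasmid and the counts do not tell the alleles apart, so this gene cannot serve to check which allele a library carries. *RRP4* itself had 299, 281 and 302 normalized counts in the *rrp4-G226D* libraries, against 178, 167 and 165 in the *RRP4* libraries, a log2 fold change of 0.79 (SE 0.059, adjusted p = 4.48e-09 by edgeR's quasi-likelihood test). Normalized counts are counts relative to the library total (CPM) scaled by edgeR's TMM factors, which correct for differences in composition between libraries.

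In *rrp4-G226D* cells none of the 8 cofactor and TRAMP mRNAs reached a change of 1.5-fold. *TRF5* and *AIR2* were each higher by a small and significant amount, 1.17-fold and 1.16-fold, and the other 6 did not pass the test. With the 1.5-fold threshold and a Benjamini-Hochberg adjusted p below 0.05, edgeR called 0 of the 8 increased and 0 decreased. Over all 7631 features tested, the same rule called 12.7% increased and 11.3% decreased, 24.0% in all. Without the fold threshold, 2 of the 8 passed as higher and 0 as lower, against 28.6% and 31.0% of all features, 59.5% in all. At an unadjusted p below 0.05, 2 members passed and none of these reached 1.5-fold, with edgeR and with DESeq2 alike. An adjusted p is never below the unadjusted one, so with edgeR at least 59.5% of all features passed at that unadjusted p. Among the 5982 open reading frames tested, 5.38% were called increased and 13.0% decreased at 1.5-fold (18.4% in all), and 23.1% passed the adjusted p alone as higher and 37.5% as lower (60.6% in all).

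The libraries hold 9360608 to 12181979 counts in *rrp4-G226D* cells and 7663545 to 10601422 in *RRP4* cells, which gave the 8 genes 169 to 3463 counts per library. At that depth the standard errors of the log2 fold changes were 0.063 to 0.096, and the 95% interval of each member lay inside 1.5-fold in both directions. The highest upper bound of any member was 1.32-fold (*LRP1*) and the lowest lower bound was 0.854-fold (*RRP6*). The scaling of the libraries enters every one of these values. The TMM factors were 1.15 to 1.198 in *rrp4-G226D* libraries and 0.821 to 0.878 in *RRP4* libraries, and with library totals alone the features tested would have a median of 0.46 on the log2 scale. A direction given for a member is thus relative to the bulk of the features, and in RNA from whole cultures fewer cells with a transcript and less of it per cell cannot be told apart. The labels give the cells as MATα, whereas the study's strain list gives the *rrp4Δ* strain as MATa. The mating-type markers went mostly with the label. *MF(ALPHA)1* had 1062 to 1270 normalized counts in *rrp4-G226D* libraries and 1267 to 1483 in *RRP4* libraries, whereas the a-cell gene *MFA1* had at most 2.87 in any library. Of the other alpha-cell genes listed, *STE3* had 110 to 157 across all libraries, *SAG1* had 39.8 to 73.4 and *MF(ALPHA)2* had only 4.30 to 5.83. *STE6*, the highest of the a-cell genes listed, had 43.2 to 49.4 in *rrp4-G226D* libraries and 31.5 to 38.2 in *RRP4* libraries. *URA3*, deleted per the labels, had 0 counts in all 6 libraries. *HIS3*, which the labels give as the *his3Δ1* allele, kept 683 to 885 counts in *rrp4-G226D* libraries and 478 to 851 in *RRP4* libraries. *LYS2* had at most 1 count in any library.

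**Figure D1:**
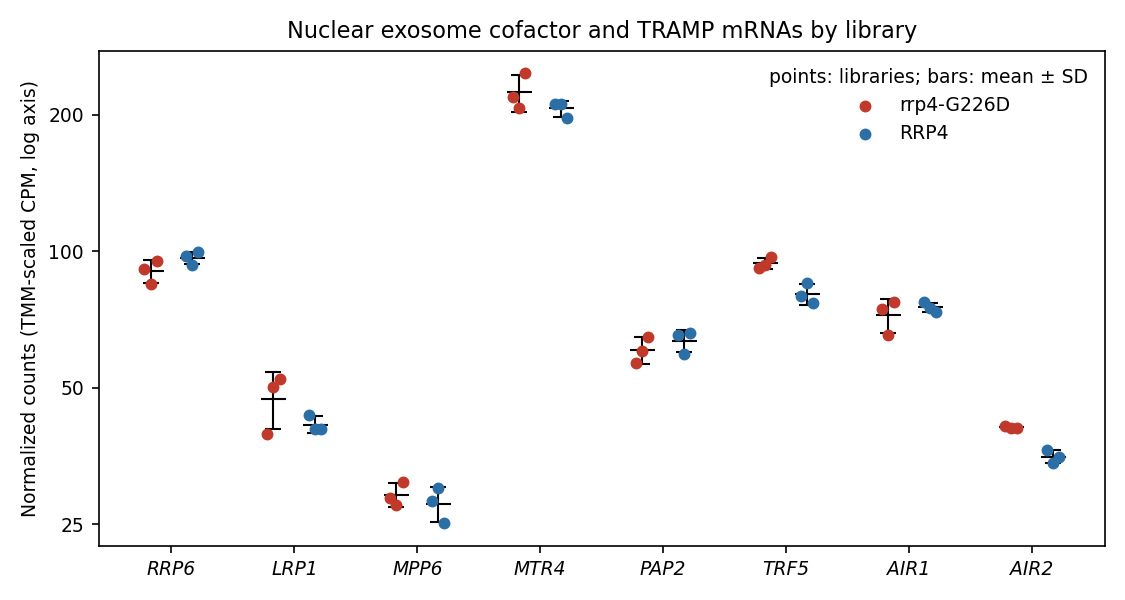
Normalized counts (TMM-scaled CPM, log axis) of the 8 mRNAs in each library, *rrp4-G226D* in red and *RRP4* in blue, with the mean and SD of 3 libraries per genotype. The genotypes separate for *TRF5* and *AIR2* and overlap for the other 6.

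*RRP6* encodes the exonuclease of the nuclear exosome (YOR001W, chromosome XV, 326832 to 329033, plus strand, 1 exon). It had 91.5, 84.8 and 94.98 normalized counts in *rrp4-G226D* libraries, against 97.5, 93.4 and 99.3 in *RRP4* libraries. The ranges overlapped, and the log2 fold change was −0.10 (SE 0.063, 95% interval −0.23 to 0.04, edgeR adjusted p = 0.206). This is the lowest value among the 8.

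*LRP1* encodes Rrp47, the binding partner of Rrp6 (YHR081W, chromosome VIII, 267538 to 268092, plus strand). It had 39.6, 50.1 and 52.2 normalized counts in *rrp4-G226D* libraries, against 43.5, 40.5 and 40.4 in *RRP4* libraries. Replicates 2 and 3 of the mutant stood above all the *RRP4* libraries and replicate 1 stood below them, which made this the member with the widest spread (coefficient of variation 14.3% in *rrp4-G226D* libraries and 4.24% in *RRP4* libraries). The log2 fold change was 0.20 (SE 0.096, 95% interval −0.01 to 0.40, edgeR adjusted p = 0.0899). Without *rrp4-G226D* replicate 1 it was 0.29 (adjusted p = 0.00633), and without *rrp4-G226D* replicate 3 it was 0.11 (adjusted p = 0.372).

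*MPP6*, the gene of the Mtr4-docking protein (YNR024W, chromosome XIV, 672409 to 672969, plus strand), had 28.5, 27.6 and 31.0 normalized counts in *rrp4-G226D* libraries, against 28.1, 30.0 and 25.1 in *RRP4* libraries. The groups overlapped. *MPP6* had a log2 fold change of 0.06 (SE 0.096, 95% interval −0.14 to 0.26, edgeR adjusted p = 0.61).

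*MTR4*, the helicase gene (YJL050W, chromosome X, 342522 to 345743, plus strand), is the most deeply counted of the 8. It had 218, 206 and 247 normalized counts in *rrp4-G226D* libraries, against 211, 211 and 197 in *RRP4* libraries. Replicate 2 of the mutant lay among the *RRP4* libraries and replicates 1 and 3 lay above them. The log2 fold change was 0.12 (SE 0.067, 95% interval −0.02 to 0.26, edgeR adjusted p = 0.144), and leaving out 1 library moved it from 0.03 without *rrp4-G226D* replicate 3 (adjusted p = 0.689) to 0.16 without *rrp4-G226D* replicate 2 (adjusted p = 0.0342).

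*PAP2* encodes Trf4, a non-canonical poly(A) polymerase (YOL115W, chromosome XV, 101475 to 103229, plus strand). It had 56.6, 60.2 and 64.8 normalized counts in *rrp4-G226D* libraries, against 65.3, 59.3 and 65.9 in *RRP4* libraries. The ranges overlapped, with a log2 fold change of −0.06 (SE 0.074, 95% interval −0.22 to 0.09, edgeR adjusted p = 0.478). It ran from −0.12 without *rrp4-G226D* replicate 3 to −0.03 without *rrp4-G226D* replicate 1 and passed in neither case.

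*TRF5* encodes the paralogous poly(A) polymerase (YNL299W, chromosome XIV, 66517 to 68445, plus strand). It had 91.7, 93.1 and 97.1 normalized counts in *rrp4-G226D* libraries, against 79.5, 85.3 and 76.7 in *RRP4* libraries. Every mutant library stood above every *RRP4* library, as it did for 31.3% of all features tested, while 32.8% had every mutant library below. Among open reading frames these shares were 25.4% and 39.7%. The log2 fold change was 0.22 (SE 0.063, 95% interval 0.09 to 0.35), or 1.17-fold with an interval of 1.06 to 1.28, and the edgeR adjusted p was 0.00574. It stayed past the threshold without any 1 library (adjusted p from 0.0075 to 0.0428) and with DESeq2 (adjusted p = 0.0145). *TRF5* had the largest change of the 8, yet 59.0% of open reading frames had a larger one in either direction.

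*AIR1* encodes a zinc-knuckle protein of TRAMP (YIL079C, chromosome IX, 210923 to 212005, minus strand). It had 74.5, 65.3 and 77.1 normalized counts in *rrp4-G226D* libraries, against 77.2, 74.8 and 73.4 in *RRP4* libraries. Replicate 2 of the mutant was the lowest of the 6 and the others were intermixed. For *AIR1* the log2 fold change was −0.06 (SE 0.071, 95% interval −0.21 to 0.09, edgeR adjusted p = 0.522).

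*AIR2*, the paralog of *AIR1* (YDL175C, chromosome IV, 144484 to 145518, minus strand), had 41.2, 40.7 and 40.7 normalized counts in *rrp4-G226D* libraries, against 36.5, 34.2 and 35.1 in *RRP4* libraries. The groups did not overlap, and the spread among the mutant libraries was the smallest of any member (coefficient of variation 0.731%). The mutant libraries held 445, 482 and 571 counts of *AIR2*. At such counts a spread this small is below usual counting noise, so it is not read as a trait of the gene. The log2 fold change was 0.21 (SE 0.078, 95% interval 0.05 to 0.38), or 1.16-fold with an interval of 1.03 to 1.30, and the edgeR adjusted p was 0.0258. This call was less firm than that of *TRF5*: it was lost with DESeq2 (adjusted p = 0.0732) and without *RRP4* replicate 2 (0.105), *RRP4* replicate 3 (0.0703), *rrp4-G226D* replicate 1 (0.0582) or *rrp4-G226D* replicate 3 (0.0605). It stayed between 0.19 and 0.24 when any 1 library was left out.

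**Figure D2:**
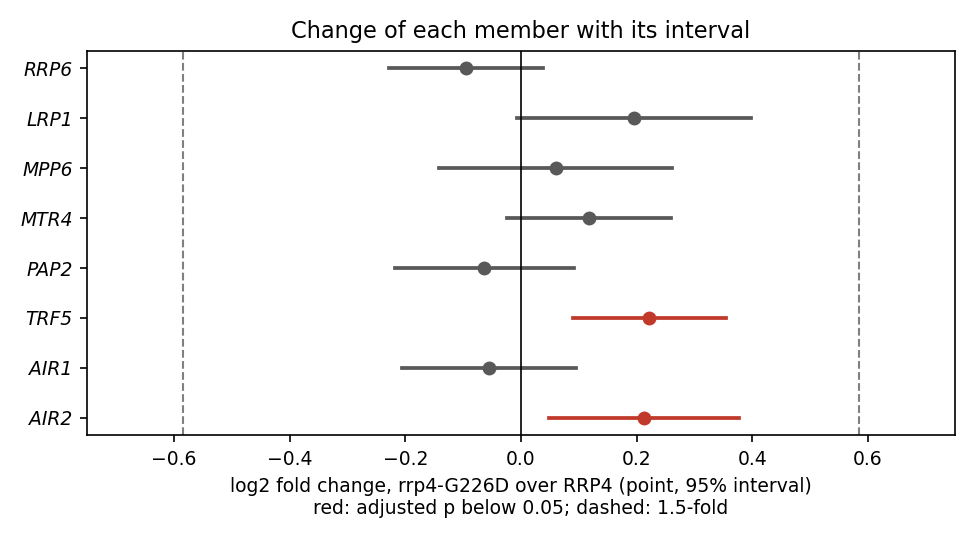
Log2 fold change of each mRNA, *rrp4-G226D* over *RRP4*, from edgeR, with its 95% interval (horizontal lines), red where the adjusted p was below 0.05 and grey otherwise. All 8 intervals lie between the dashed lines at 1.5-fold, and those of *TRF5* and *AIR2* lie above 0.

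Across the members, 5 log2 fold changes were above 0 and 3 below, with a median of 0.09, beside a median of 0.01 over all features and −0.07 over open reading frames. The middle 50% of open reading frames ran from −0.36 to 0.20 on the log2 scale. Summed over the 8 genes, normalized counts were 642, 628 and 705 in *rrp4-G226D* libraries and 639, 629 and 613 in *RRP4* libraries, and the sums overlapped. Before scaling for composition, the 8 genes took 0.0741, 0.0752 and 0.0812% of all counts in *rrp4-G226D* libraries, against 0.0524, 0.0547 and 0.0538% in *RRP4* libraries. The share of counts was thus higher in every mutant library, as library totals alone would place the median of all features higher, and the scaled level of the 8 genes together was not separated between genotypes.

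The cofactors come in related or partnered pairs, and the ratio of a pair within a library does not depend on how libraries are scaled. Per kilobase of gene, the ratio of *PAP2* to *TRF5* was 0.679, 0.711 and 0.733 in *rrp4-G226D* libraries, against 0.903, 0.765 and 0.944 in *RRP4* libraries. The balance of the poly(A) polymerase mRNAs was lower for *PAP2* in every mutant library. How often the ratios of other gene pairs separate the genotypes was not examined. Among single features, 31.3% had every mutant library above every *RRP4* library and 32.8% had every one below, so separation is common here. On the log2 scale the ratio differed by −0.29, with 3 libraries per genotype, a p of 0.1 in an exact two-sided permutation test and 0.133 after adjustment over the 4 ratios compared. With 3 against 3 the smallest p that this test can give is 0.1, so it cannot pass 0.05 in this design.

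The ratio of *AIR1* to *AIR2* per kilobase moved to a like extent, with 1.73, 1.53 and 1.81 in *rrp4-G226D* libraries against 2.02, 2.09 and 2.00 in *RRP4* libraries. The groups did not overlap, and the log2 difference was −0.27 (exact permutation p = 0.1, adjusted 0.133, n = 3 each). For the helicases, the ratio of nuclear *MTR4* to cytoplasmic *SKI2* was 1.44, 1.32 and 1.51 in *rrp4-G226D* libraries, against 1.63, 1.68 and 1.61 in *RRP4* libraries. This difference of −0.20 on the log2 scale also had no overlap (exact permutation p = 0.1, adjusted 0.133, n = 3 each). *SKI2*, which encodes the helicase of the cytoplasmic Ski complex, had a log2 fold change of 0.32 (SE 0.057, edgeR adjusted p = 0.000116), so this ratio sets a gene that rose against *MTR4*, whose 0.12 did not pass the test.

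The ratio of *RRP6* to its partner *LRP1* was 0.582, 0.426 and 0.458 in *rrp4-G226D* libraries, against 0.565, 0.581 and 0.618 in *RRP4* libraries. Replicate 1 of the mutant lay within the *RRP4* range. The log2 difference of −0.28 had an exact permutation p of 0.3 (adjusted 0.3, n = 3 each). When any 1 library was left out, the log2 differences of all 4 ratios stayed negative, from −0.41 to −0.15. For the pairs without overlap the sign could not have changed.

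**Figure D3:**
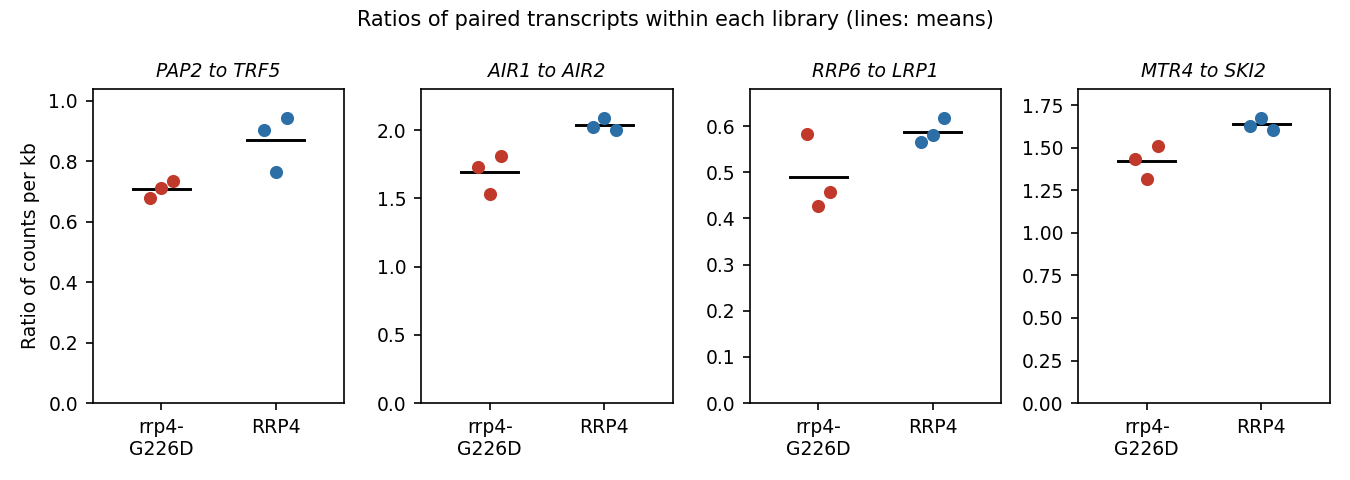
Ratio of counts per kilobase within each library for 4 pairs of transcripts, *rrp4-G226D* in red on the left and *RRP4* in blue on the right of each panel, with lines at the means of 3 libraries and axes that start at 0. The genotypes do not overlap for *PAP2* to *TRF5*, *AIR1* to *AIR2* and *MTR4* to *SKI2*, and they overlap for *RRP6* to *LRP1*.

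Paralogs can share reads, so the sequences were compared in the R64 assembly. The coding sequences of *PAP2* and *TRF5* were identical at 1116 of 1681 aligned bases (66.4%), and those of *AIR1* and *AIR2* at 658 of 977 (67.3%). Their proteins, of 584 and 642 residues for Trf4 and Trf5 and of 360 and 344 residues for Air1 and Air2, were 57.8% and 50.2% identical. The longest run shared without a mismatch was 20 bases in the polymerase pair and 18 bases in the zinc-knuckle pair, and these stretches are shown. Which stretch of the length of a read is most alike within a pair was not examined. The shared run is in capitals and the flanks are in lower case.
PAP2, XV:102623-102650, plus strand: tgggAAAAATTTTGGTTATGATGAtgtt
TRF5, XIV:67656-67683, plus strand: cggaAAAAATTTTGGTTATGATGAcgtt
AIR1, IX:211547-211572, minus strand: caagAGAAAGATGTCCTAGTATttgg
AIR2, IV:145099-145124, minus strand: caaaAGAAAGATGTCCTAGTATatgg
In each pair the first bases beyond the run differ. All windows of 100 bases in the 8 genes (936 of 936 in *AIR2*, 1830 of 1830 in *TRF5*) occurred once in the genome, so a read of that length from a member has no second exact match. *MTR4* and *SKI2* shared 63.4% of aligned bases, 38.3% of residues and a longest run of 14 bases.

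Levels of different genes were compared per kilobase of gene length. In *rrp4-G226D* libraries the mean normalized counts per kilobase were 85.3 ± 12.17 for *LRP1*, 69.5 ± 6.43 for *MTR4*, 66.8 ± 5.73 for *AIR1*, 51.7 ± 3.15 for *MPP6*, 48.7 ± 1.45 for *TRF5*, 41.1 ± 2.36 for *RRP6*, 39.5 ± 0.288 for *AIR2* and 34.5 ± 2.32 for *PAP2* (SD, n = 3). Neighbours in this order overlapped, other than at the steps between *AIR1* and *MPP6*, *TRF5* and *RRP6*, and *AIR2* and *PAP2*. In *RRP4* libraries the order was *LRP1* (74.7 ± 3.17), *AIR1* (69.4 ± 1.74), *MTR4* (64.1 ± 2.61), *MPP6* (49.5 ± 4.42), *RRP6* (43.9 ± 1.38), *TRF5* (41.7 ± 2.26), *PAP2* (36.2 ± 2.06) and *AIR2* (34.0 ± 1.118), where overlaps were found between *MPP6* and *RRP6*, *RRP6* and *TRF5*, and *PAP2* and *AIR2*. *LRP1* thus headed the order and the polymerase gene *PAP2* and the zinc-knuckle gene *AIR2* closed it in both genotypes. *TRF5* stood above *RRP6* without overlap in *rrp4-G226D* libraries, whereas their ranges overlapped in *RRP4* libraries. All 8 sat in the middle of the transcriptome: of 5734 open reading frames, between 33.3% (*PAP2*) and 70.1% (*LRP1*) had a lower mean level per kilobase in *rrp4-G226D* cells, and between 31.8% (*AIR2*) and 63.4% (*LRP1*) in *RRP4* cells.

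The other genes of the pathway were described from lists by the role of their proteins. Of the 10 core subunits of the exosome, 3 were higher, 4 were lower and 3 did not pass edgeR's adjusted p, and the median log2 fold change was −0.03. The highest was the plasmid gene *RRP4*, described above, and the only one called at 1.5-fold. The lowest was the cap subunit gene *RRP40*, with 59.4, 46.3 and 55.2 normalized counts in *rrp4-G226D* libraries, against 70.0, 70.9 and 75.1 in *RRP4* libraries (log2 fold change −0.42, SE 0.083, adjusted p = 0.000279). The core subunits thus spread over a wider range, from −0.42 to 0.79 on the log2 scale, than the nuclear cofactors, from −0.10 to 0.22. The upper end of that range is the plasmid gene, and the next highest core subunit gene was *RRP45* with 0.35 (SE 0.083).

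The Nrd1-Nab3-Sen1 complex, which ends transcription of short non-coding RNAs and passes them to TRAMP and the exosome, had larger changes. All 3 of its genes were called increased, with log2 fold changes of 0.91 for *NRD1* (SE 0.068, adjusted p = 4.87e-09), 0.68 for *NAB3* (SE 0.066, adjusted p = 9.56e-08) and 0.59 for the helicase gene *SEN1* (SE 0.057, adjusted p = 9.81e-08). *NRD1*, an RNA-binding subunit, had 520, 504 and 569 normalized counts in *rrp4-G226D* libraries, against 308, 266 and 275 in *RRP4* libraries. Each of these 3 changes lay beyond the highest upper bound of the 95% intervals of the 8 cofactors, which is 0.40 on the log2 scale. The study had reported *NRD1* and *NAB3* as increased in these RNA-seq data and by RT-qPCR. The list was chosen with such results known, so its contrast with the cofactors is a description and not a test.

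Of the 4 genes of the cytoplasmic exosome cofactors, 2 were higher, 1 was lower and 1 did not pass, with none at 1.5-fold and a median of 0.16. *SKI2* was the highest, and *SKI8*, the WD-repeat subunit of the Ski complex, was the lowest with −0.39 (SE 0.074, adjusted p = 0.000209). The Mtr4 adaptors in ribosome assembly gave 0.21 for *NOP53* (SE 0.07, adjusted p = 0.0135) and 0.11 for *UTP18* (SE 0.074, adjusted p = 0.197). Of 6 genes of other nuclear exonucleases and their partners, 2 were higher, 2 were lower and 2 did not pass, from −0.24 for *REX2* (adjusted p = 0.00619) to 0.35 for the 5′ exonuclease gene *RAT1* (adjusted p = 0.000106), with a median of 0.02. The canonical poly(A) polymerase gene *PAP1* was lower, with a log2 fold change of −0.25 (SE 0.066, adjusted p = 0.00393), and the poly(A)-binding protein gene *NAB2* was higher, with 0.48 (SE 0.073, adjusted p = 2.4e-05). Both pass the adjusted p, in opposite directions, and neither reached 1.5-fold.

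**Figure D4:**
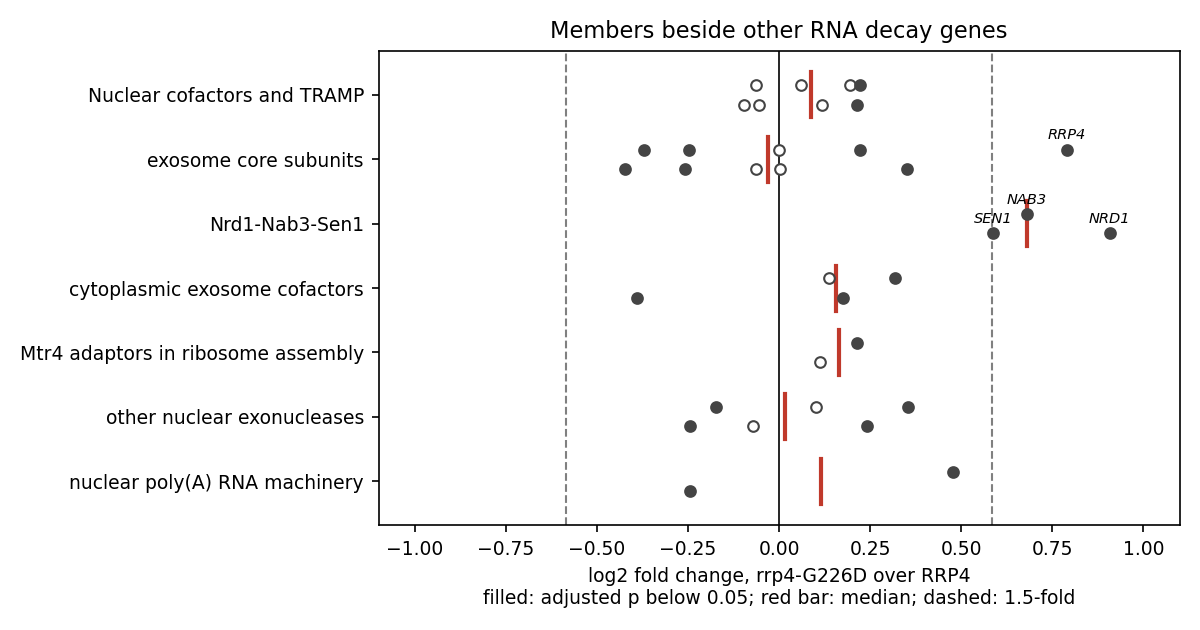
Log2 fold change, *rrp4-G226D* over *RRP4*, of the 8 nuclear cofactor and TRAMP genes in the top line and of 6 lists of other RNA decay genes below, one point per gene, filled where the edgeR adjusted p was below 0.05, with the list median as a red bar. The nuclear cofactors lie between −0.10 and 0.22, and the only genes past the dashed lines at 1.5-fold are *RRP4*, *NRD1*, *NAB3* and *SEN1*.

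None of the 8 genes overlaps another gene of the RefSeq annotation. The counted CUTs and SUTs (cryptic and stable unannotated transcripts) were used without positions, so their overlap with the 8 genes was not examined. The same holds for counted open reading frames that this annotation lacks. The nearest neighbour in that annotation is *PTH4*, which lies 87 bases beyond the end of *PAP2* on the opposite strand and runs towards it. *PTH4* had means of 54.6 normalized counts in *rrp4-G226D* libraries and 16.1 in *RRP4* libraries, a log2 fold change of 1.75 (SE 0.087, edgeR adjusted p = 4.27e-11), beside −0.06 for *PAP2*. The sources do not say whether strand was used in counting, and the part of *PTH4* transcripts in the *PAP2* counts was not tested. *TRF5* lies between *TOS6*, with means of 54.9 normalized counts in *rrp4-G226D* libraries and 109.9 in *RRP4* libraries (adjusted p = 2.5e-09), and *CLA4*, with a log2 fold change of 0.24 (adjusted p = 0.00233). *AIR1* has *THS1* on its other side, with a log2 fold change of −0.65 (adjusted p = 4.28e-08), and a tRNA gene that was not used here. The other neighbours had log2 fold changes from −0.43 (*ALG6*, beside *RRP6*) to 0.42 (*SEC12*, beside *MPP6*).

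The 300 bases around each start codon, 250 before it and 50 from it on, were searched on both strands for the PAC motif (GATGAG) and the RRPE motif (AAAATTTT), letters known from promoters of yeast ribosome assembly genes. PAC letters were found at 5 of the 8 genes and at 20.3% of 6020 promoters of open reading frames, and RRPE letters at 2 of the 8 and at 9.0% of promoters. The PAC matches are shown with the motif in capitals, read along each gene's own strand, so that a match on the opposite strand reads CTCATC. The distance from the first base of the motif to the start codon was 132 bases for *LRP1*, 55 for *MPP6*, 139 for *MTR4*, 166 for *TRF5* and 70 for *AIR1*.
LRP1, VIII:267396-267421, plus strand: gtttttcagcGATGAGctaaggcaga
MPP6, XIV:672344-672369, plus strand: aagtagtagaGATGAGggccacttaa
MTR4, X:342373-342398, plus strand: actttcttgcGATGAGatgcacatag
TRF5, XIV:66341-66366, plus strand: ggcatctcatCTCATCgcagttaaaa
AIR1, IX:212060-212085, minus strand: ttagcgatgcGATGAGtgggaaaggt
*TRF5* has another match that overlaps the one shown, 171 bases before the start. RRPE letters occurred 89 bases before the start of *RRP6* and 98 bases before that of *MPP6*. The 5 genes with PAC letters had log2 fold changes from −0.06 to 0.22, and the 3 without, *RRP6*, *PAP2* and *AIR2*, from −0.10 to 0.21. A match to 6 or 8 letters is a description of the sequence and not of a bound site.

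Over the 6 libraries, the named open reading frame whose normalized counts followed *TRF5* most closely was *TFG1*, a subunit gene of the transcription factor TFIIF, with a root mean square distance of 0.02 on the log2 scale after each gene was centred on its mean, among 5128 compared. *SNO2* and *AGX1* followed, with 0.03 each, and the log2 fold changes of the 3 were 0.22, 0.23 and 0.22. For *AIR1*, the member with the smallest change, the closest were *THI7*, *ROG1* and *SUA5*, each with 0.02. Among the members themselves, *RRP6* and *AIR1* were the closest at 0.05, *TRF5* and *AIR2* lay 0.07 apart, and *TRF5* and its paralog *PAP2* lay 0.18 apart. These distances rest on 6 libraries of 2 genotypes and are given as a description.

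The sign of the 3 changes below 0 depended on scaling. The other scalings moved all features upward, so the sign of the 5 members above 0 could not have changed. *RRP6*, *PAP2* and *AIR1* had negative log2 fold changes with TMM, and values of 0.35, 0.39 and 0.39 when libraries were scaled by their totals alone, beside 0.67 for *TRF5* and 0.66 for *AIR2*. With TMM factors taken from open reading frames alone, *PAP2* and *AIR1* stood at 0.01 and 0.02, and *LRP1* (0.27, adjusted p = 0.0213) and *MTR4* (0.19, adjusted p = 0.0191) passed the test as well. Relative to the median of all features, the median of the 8 was 0.08 in each of these scalings.

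**Figure D5:**
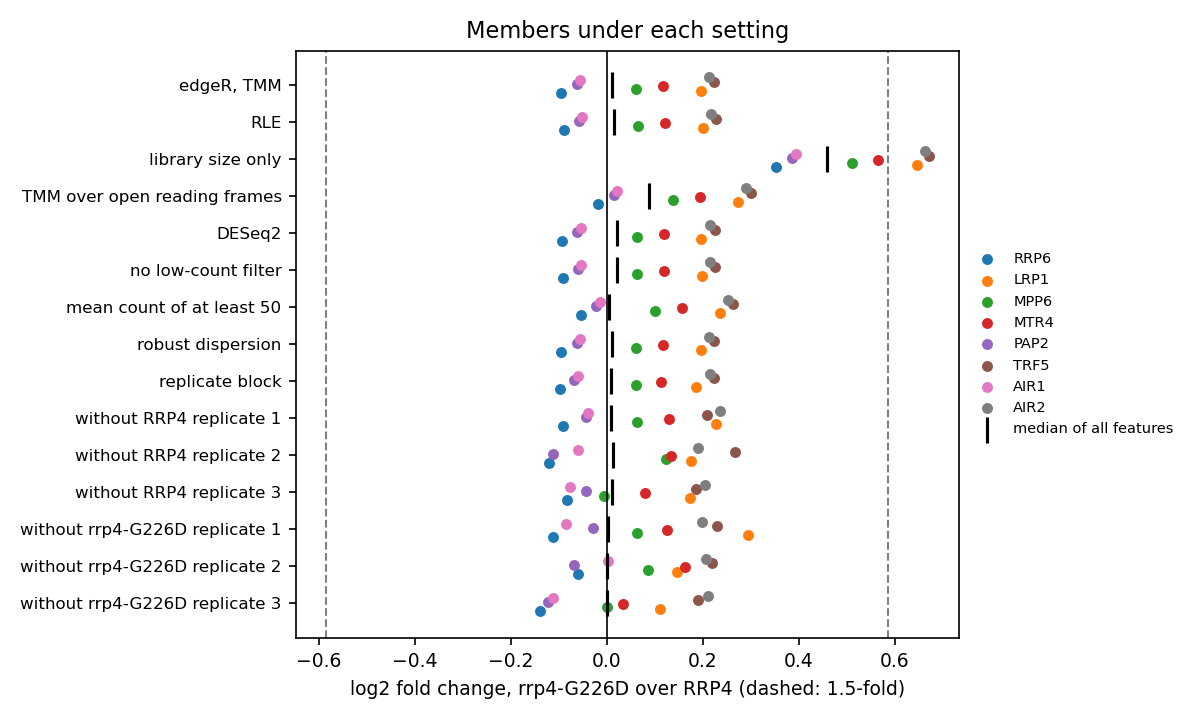
Log2 fold change of the 8 mRNAs, *rrp4-G226D* over *RRP4*, under each normalization, test, filter and left-out library (rows), with the median of all features tested as a black bar and 1.5-fold as dashed lines. Library totals alone move the members and all features together, and in the other rows every member stays inside 1.5-fold.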

How the data were processed

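RNA-seq libraries of 3 *rrp4-G226D* and 3 *RRP4* cultures, grouped by the sample titles, were compared. Per the labels and the study's methods, stranded libraries were mapped with STAR to the R64 genome and reads were assigned to features with featureCounts 1.6.4. The authors deposited whole-number counts per feature, with no normalization. A strand setting and the treatment of multiply mapped reads are not given in the sources used here. From the authors' deposited DESeq2 table only gene names were used, and its mean signals, log2 fold changes, standard errors, scores and p-values were not.

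Counts were normalized by TMM, filtered with filterByExpr and tested by genotype with the quasi-likelihood test of edgeR 4.0.16 in R 4.3.3. Adjusted p-values are Benjamini-Hochberg over all 7631 features tested. The standard error is the log2 fold change divided by the square root of F. The 95% intervals use the total degrees of freedom of the test, which add those borrowed from other features to the residual ones. Intervals of this kind and p-values measure the spread between 3 cultures per genotype. For edgeR, that spread is moderated across all features tested. Ratios were taken within libraries with a prior count of 0.5 and tested by exact permutation with scipy 1.17.1 in Python 3.11.15. Sequences and positions come from RefSeq's R64 annotation, in which all 8 genes matched. Alternatives were DESeq2 1.42.0, other scalings and filters, robust dispersion, a replicate block, glmTreat, a prior count of 2 and leaving out each library. The functions were tested on simulated data.

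The genes, the pathway lists and the tests were chosen with earlier results of these data known. The named genes are the 8 members, *RRP4*, list members past the threshold or at either end of a list, nearest neighbours, and the 3 genes most like the members with the largest and smallest change. Counts of libraries within a genotype differed by more than sampling noise (chi-square per degree of freedom 2.33 to 9.59), so each was kept as a sample. Same-numbered libraries did not deviate together, so replicate numbers were not taken as pairs.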

Additional observations from a re-analysis of the deposited data

How the results depend on the processing

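No member was called decreased in any setting, and none increased except with library totals alone (3 members: *LRP1*, *TRF5* and *AIR2*) and when the fold threshold was dropped (2 members); glmTreat against 1.5-fold called 0. The 2 members past the adjusted p became 8 with library totals alone, 4 with TMM over open reading frames and 1 with DESeq2, and 1 to 3 when a library was left out. With edgeR and TMM, 59.5% of all features passed. The shares of all features passing or called increased under the other settings were not computed. The counts of members under those settings are thus not read as results about the members. The median log2 fold change of the members, 0.09, became 0.54 with library totals alone and 0.17 with TMM over open reading frames, and ran from 0.017 (without *rrp4-G226D* replicate 3) to 0.13 (without *RRP4* replicate 2). These scalings move all features together, by 0.46 and 0.09. With library totals alone *RRP6* turned to 0.35, *PAP2* to 0.39 and *AIR1* to 0.39, and with TMM over open reading frames *PAP2* turned to 0.0139 and *AIR1* to 0.0217. Leaving out a library gave −0.0070 to 0.12 for *MPP6* and −0.11 to 0.00189 for *AIR1*, and moved *RRP6* between −0.14 and −0.06, *PAP2* between −0.12 and −0.03, *MTR4* between 0.03 and 0.16 and *LRP1* between 0.11 and 0.29. *LRP1* also passed with a mean count of at least 50 (adjusted p = 0.0438). *TRF5* passed the adjusted p in all 14 other settings in which it was tested against no change. With the replicate block, 2 members passed, *TRF5* and *AIR2*, as without it, and the block ended no call. The 4 ratios kept their sign with a prior count of 2 and without any 1 library. Pairing same-numbered libraries leaves the mean difference of a ratio as it was, so the block could not change its sign. Where the groups did not overlap, leaving out a library could not change the sign either. The correlations of same-numbered libraries were 0.03, 0.06 and −0.06, and not every library went best with its own number. Without dividing by length, 7 members took another place in the order of levels. The width of the intervals limits how small a change of a single member can be told from no change. That width reflects the spread between cultures of a genotype, and the part of depth in it was not tested. The cause of the lost *AIR2* calls was not tested either.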
